A study of Mus musculus with 24 samples.

Results

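Astrocytes sorted from the cortex of conditional Nfix knockout mice (NFIXcKO in the series' design) were compared with those of control mice by bulk RNA sequencing. The comparison took every library that the labels assign to the cortex, 3 with the genotype label KO and 3 with the label WT, 6 of the 24 libraries of the series. The other 18 libraries came from the olfactory bulb, hippocampus and thalamus. Of the 24394 genes in the table, 8376 had a value of at least 10 in 3 or more of the 6 cortex libraries and were tested. WT 3 detected far fewer genes than the others and held little astrocyte RNA, so differences are given with and without it, and 8180 genes were tested without it. The Cre driver, the deleted exons, the age and sex of the mice and the marker used in the sort are not given in the sources used here. Nothing in the labels says that the libraries of a group came from separate animals. The p-values thus reflect variation among libraries that could be purely technical.

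NFIX is a transcription factor of the nuclear factor I (NFI) family, whose members bind DNA as dimers at a palindromic motif. NFIA, NFIB and NFIX act in the switch of neural progenitors from making neurons to making glia, and stay expressed in mature astrocytes. Cortical astrocytes take up glutamate, GABA and potassium released by neurons, and clear adenosine and extracellular ATP. They also supply glutamine, lactate and cholesterol, and secrete proteins that regulate synapses. The title of the series names GABA and purinergic signalling and thalamocortical circuits. The cortex comparison addresses how gene expression differs by genotype at the cortical end of those circuits.

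Levels are normalized reads (read numbers scaled by a size factor per library, with no correction for gene length). Differences are KO minus WT, between group means of log2(normalized reads + 10), with a standard error (SE) from limma. Adding 10 understates the change of low genes. A gene was called at a Benjamini-Hochberg adjusted p under 0.05 over all genes tested. Libraries held 4803663 to 16924793 reads, the fewest in WT 3. With 6 libraries limma called 0 of 8376 genes (0%) in either direction. At an unadjusted p under 0.05 it held 204 genes (2.44%), 130 of them higher in KO (1.55%) and 74 lower (0.883%). Without WT 3 it again called 0 genes (0%), with 279 (3.41%) at an unadjusted p under 0.05, 95 higher (1.16%) and 184 lower (2.25%). The smallest adjusted p was 0.996 with 6 libraries, and without WT 3 it was 0.182, followed by 0.916 and 0.997. On the reads recovered from the table, edgeR, DESeq2 and limma-voom called 6, 26 and 2 genes with 6 libraries and 0, 37 and 0 without WT 3. Because no gene passed limma's test in either fit, the genes below are described by their values and intervals.

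Single libraries shared only part of their detected genes, within a genotype as between genotypes. At least 1 read was found for 10098, 10684 and 3871 genes in WT 1, WT 2 and WT 3, and for 8580, 10195 and 8244 genes in KO 1, KO 2 and KO 3. Of the 13313 genes found in any cortex library, 2666 (20.0%) were found in all 6, and 5939 were found in all 5 when WT 3 was set aside. Among genes with at least 50 normalized reads in either library of a pair, 10.6 to 22.7% were at 0 in the partner within a genotype and 15.3 to 20.0% between genotypes. In pairs with WT 3 this share was 57.3 to 60.2%. A first principal component with 53.2% of the variance set WT 3 apart from the other 5 libraries, and a second with 16.1% set KO 3 apart. Marker genes of the labelled cell type were abundant in 5 libraries. The 9 astrocyte markers summed to 90605, 89240 and 18030 CPM (reads scaled to a common library total) in the WT libraries and to 86292, 68785 and 85359 in the KO libraries. In WT 3 the astrocyte markers Aldh1l1 and Gfap were at 0.

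**Figure D1:**
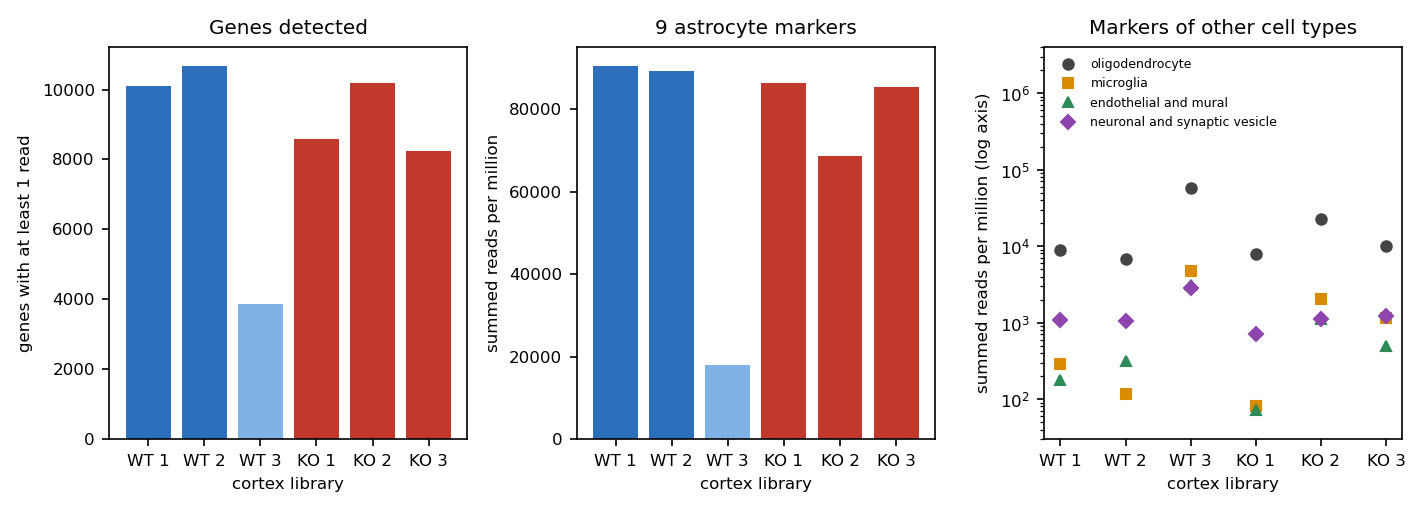
Genes with at least 1 read (left), summed CPM of 9 astrocyte markers (middle) and of the marker lists of 4 other cell types (right, log axis) in each cortex library, with WT in blue, WT 3 in light blue and KO in red in the bar panels. WT 3 has 3871 genes and 18030 CPM of astrocyte markers, below every other library, and stands highest for all 4 other cell types.

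Markers of other cells were not even across the remaining libraries. Oligodendrocyte markers summed to 9017, 6788 and 56590 CPM in WT 1 to 3 and to 7897, 22855 and 10153 in KO 1 to 3. Microglia markers summed to 288, 116 and 4697 in the WT libraries and to 81.6, 2026 and 1165 in the KO libraries. Both lists were thus high in WT 3 and, among the other libraries, highest in KO 2, while KO 1 was close to WT 1 and WT 2 or below them. Neuronal and synaptic vesicle markers summed to 1090, 1055 and 2815 CPM in WT and 716, 1112 and 1212 in KO. Endothelial and mural markers summed to 177, 310 and 3055 in WT and 71.0, 1104 and 496 in KO. Erythrocyte markers were at 0 in all 6 libraries. In bulk samples, fewer cells of a type and less RNA per cell cannot be told apart.

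Nfix itself was not lower in the libraries labelled KO. It held 3320, 3635 and 4402 normalized reads in WT 1 to 3 and 5713, 4230 and 5136 in KO 1 to 3. In normalized reads the groups overlapped only through WT 3, which lay above KO 2. In CPM, Nfix stood at 327, 373 and 242 in WT and 566, 447 and 475 in KO. On that scale WT 3 was the lowest library and the groups did not overlap. The log2 difference was 0.41 (SE 0.87) with 6 libraries and 0.52 (SE 0.53) without WT 3. An exact two-sided permutation test over the libraries gave p = 0.2 in both cases, where the smallest possible value was 0.1. These are reads summed over the whole gene, which spans chr8:84699876-84800344 on the minus strand (GRCm38). They do not check the deletion of single exons, so WT and KO stand below for the labels of the libraries. With upper-quartile factors in place of the deposited size factors the direction with 6 libraries turned, to -1.52, with a wide SE of 2.43.

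The other 3 NFI genes are the factors that could act at the same motif. Nfia held 14013, 8837 and 21664 normalized reads in WT and 15655, 7880 and 20014 in KO, overlapping ranges with a log2 difference of 0.28 without WT 3 (95% interval -0.44 to 1.00, and -0.04 with 6 libraries). Nfib held 5640, 5822 and 14039 in WT and 10026, 4861 and 7029 in KO, again overlapping (0.29, -0.61 to 1.18, and -0.14 with 6 libraries). Nfic varied most within a group, with 1187, 4515 and 3453 in WT and 1138, 974 and 1577 in KO (-0.94, -2.47 to 0.59, and -1.13 with 6 libraries). No NFI gene was called in either fit, and of the NFI genes Nfix was the one whose groups did not overlap without WT 3. Of 9 genes listed as NFI targets in earlier work on other systems, 6 could be tested. Their differences without WT 3 were above 0 for 4 and below 0 for 2, with a median of 0.25 beside -0.29 for all genes. With 6 libraries 5 were above 0 and 1 below, with a median of 1.70 beside 0.49 for all genes. Hes1, a Notch effector that NFI factors repress in neural progenitors, held 48.6, 21.3 and 0 normalized reads in WT and 196, 901 and 557 in KO. Every KO library was above every WT library, and the difference without WT 3 was 3.47 (SE 1.90, limma unadjusted p = 0.068, and 4.17 with 6 libraries). Fabp7, a fatty acid binding protein of radial glia and astrocytes, had 1724, 1619 and 870 in WT and 1645, 3135 and 5643 in KO, with KO 1 inside the WT range.

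The abundant genes of astrocyte function were the best measured, and most differed little between the genotypes once WT 3 was left out. Of the 91 genes with a mean of at least 10000 normalized reads without WT 3, the median SE was 0.33, against 1.67 over all genes tested. Slc1a2, the main glutamate transporter of the forebrain, held 707302, 669714 and 282832 normalized reads in WT and 676562, 486321 and 638653 in KO. Without WT 3 the difference was -0.21 (95% interval -0.44 to 0.02, and 0.22 with 6 libraries), with KO 1 inside the WT range. Slc1a3, the second astrocytic glutamate transporter, differed by -0.09 (-0.52 to 0.33, and 0.65 with 6 libraries). Glul, glutamine synthetase, differed by -0.03 (-0.46 to 0.40, and 0.43 with 6 libraries). Changes of 2-fold in these transporters and in glutamine synthetase lay outside the intervals. The same held for Aldoc, the brain aldolase, at 0.01 (-0.40 to 0.42). Apoe, the lipid carrier of astrocytes, stood at -0.19 (-0.65 to 0.28, and 0.14 with 6 libraries) and the protease inhibitor Cst3 at 0.06 (-0.40 to 0.52, and -0.16 with 6 libraries). With WT 3 these intervals widened, for Aldoc to -2.17 to 4.59, since WT 3 held 6354 normalized reads of it against 62496 to 105624 in the other 5 libraries.

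The direction of the astrocyte lists depended on WT 3. Among the 9 astrocyte markers, 8 stood above 0 with 6 libraries (median 1.10) and 5 without WT 3 (median 0.01). Over all genes tested 60.8% stood above 0 and 39.2% below with 6 libraries (median 0.49), and 40.4% above and 59.6% below without WT 3 (median -0.29). Of the 29 tested astrocyte identity genes, 22 stood above 0 with 6 libraries (median 0.46) and 10 without WT 3 (median -0.15). Neither list had a called member in either fit.

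**Figure D2:**
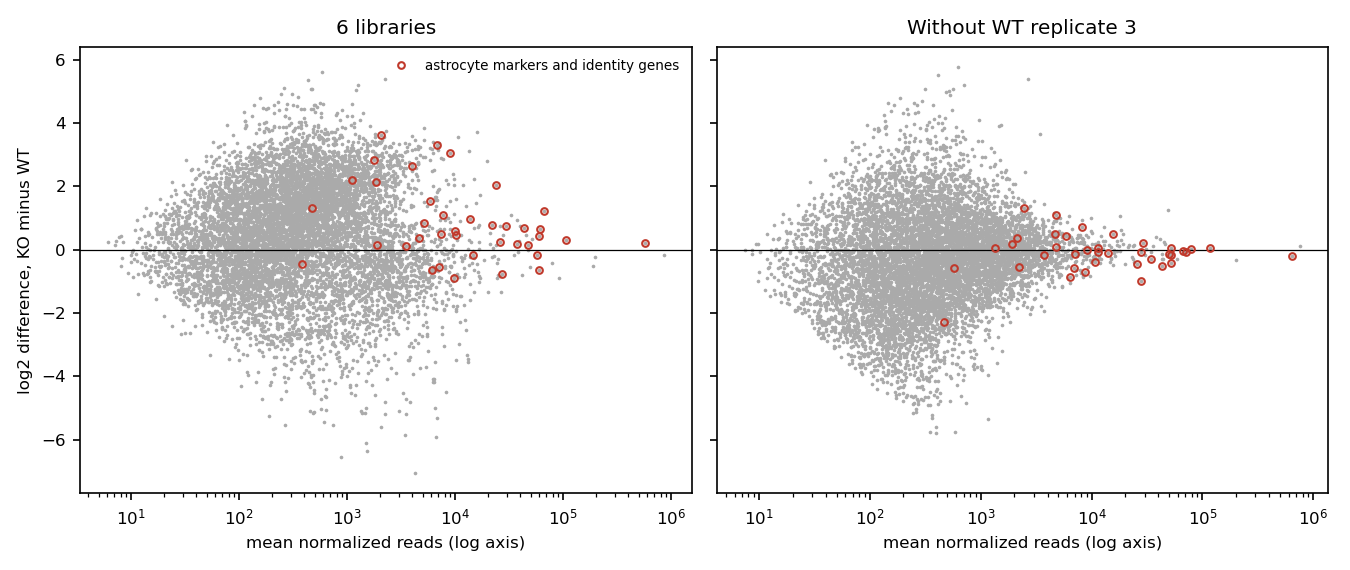
Log2 difference of KO and WT against the mean normalized reads (log axis) for every gene tested, with 6 libraries (left) and without WT 3 (right), and astrocyte marker and identity genes circled in red. Differences narrow with level, and the circled genes move from mostly above 0 on the left to a band around 0 on the right.

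Clu had the smallest p of the abundant astrocyte genes without WT 3. It encodes clusterin, a secreted chaperone and lipid carrier, and spans chr14:65968483-65981547 on the plus strand. It held 35186, 43639 and 24039 normalized reads in WT and 19188, 13126 and 29592 in KO. All KO libraries were below WT 1 and WT 2, and KO 3 was above WT 3. The log2 difference was -0.77 (SE 0.45, limma unadjusted p = 0.089) with 6 libraries and -1.0 (SE 0.29, unadjusted p = 0.000551, adjusted p = 0.997) without WT 3. On recovered reads limma-voom called Clu lower with 6 libraries, at -0.89 (adjusted p = 0.0115), but called no gene without WT 3. The Clu values of the other regions came from different libraries. In the olfactory bulb all KO libraries (6150 to 7946) were below all WT libraries (8627 to 12501), and in the thalamus KO (4444 to 24886) was below WT (25366 to 32744). In the hippocampus the ranges met, with 27421 to 31583 in KO and 31486 to 40248 in WT. A test of the cortex difference against the mean of the other 3 regions gave -0.14 (SE 1.03, limma adjusted p = 0.99) for Clu, and -0.64 (SE 0.34, limma adjusted p = 1.00) without WT 3 and thalamus KO 3, a library with few detected genes.

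Cpe, Ndrg2 and Sparcl1, also abundant in astrocytes, lay below 0 without WT 3. Cpe encodes carboxypeptidase E, which processes and sorts neuropeptides. Its values were 64288, 58921 and 96394 in WT and 43164, 45234 and 50287 in KO, with every KO library below every WT library. Limma gave -0.63 (SE 0.34) with 6 libraries and -0.42 (SE 0.24) without WT 3, and limma-voom called Cpe with 6 libraries at -0.37 (adjusted p = 0.00217). Groups failed to overlap in this way, with KO lower, for 241 of 8376 genes (2.88%), and with KO higher for 396 (4.73%). Without WT 3 the counts were 1018 (12.4%) lower and 545 (6.66%) higher of 8180. Ndrg2, an astrocyte-rich protein, held 47910, 55758 and 12277 in WT and 41657, 26252 and 42479 in KO (-0.52 without WT 3, 95% interval -1.02 to -0.03, and 0.17 with 6 libraries). Sparcl1, the synaptogenic protein hevin, held 238247, 211362 and 176431 in WT and 203283, 118110 and 232779 in KO (-0.34, -0.66 to -0.02, and -0.22 with 6 libraries), and KO 3 was within the WT range. KO 2, the library with the most oligodendrocyte and microglia reads among these 5, was the lowest for each of Clu, Ndrg2 and Sparcl1, and the part of those reads in the differences was not tested.

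Genes of GABA handling followed the same split between fits. Of 29 listed genes 19 were tested, and 0 were called. With 6 libraries 17 stood above 0 and 2 below (median 0.97), and without WT 3 the counts were 4 above and 15 below (median -0.18). WT 3 held 0 reads of Aldh5a1, Aldh1a1 and Gabra2 and 56.7 normalized reads of Gabbr1, while the other 5 libraries held 4733 to 18936 of Gabbr1. Slc6a11, a GABA transporter of astrocytes, held 11989, 10787 and 2712 in WT and 18009, 8071 and 8358 in KO. Only KO 1 was above WT 1 and WT 2, and the difference without WT 3 was -0.09 (95% interval -0.84 to 0.66, and 0.60 with 6 libraries). Abat, the GABA transaminase, overlapped as well, with 8213, 5143 and 1702 in WT and 7453, 5496 and 4725 in KO.

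The metabotropic GABA receptor is built of the products of Gabbr1 and Gabbr2. Gabbr1, which binds GABA, held 9497, 12250 and 56.7 normalized reads in WT and 11957, 4733 and 18936 in KO (-0.08 without WT 3, -0.84 to 0.69, and 2.37 with 6 libraries). Gabbr2, which couples the receptor to its G protein, held 2579, 3396 and 15.1 in WT and 1711, 468 and 497 in KO. Every KO library was below WT 1 and WT 2, and WT 3 was below all. The difference was 0.30 (SE 1.87) with 6 libraries and -1.99 (SE 0.85, limma unadjusted p = 0.0188, adjusted p = 0.997) without WT 3. Whether the subunits differ from each other was not tested. Gabrg1, a GABA-A subunit of astrocytes, held 3894, 6920 and 7.56 in WT and 6794, 3125 and 6317 in KO, overlapping without WT 3. Gabra2 held 1904, 1465 and 0 in WT and 2299, 2933 and 1676 in KO, with KO 3 inside the WT range.

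**Figure D3:**
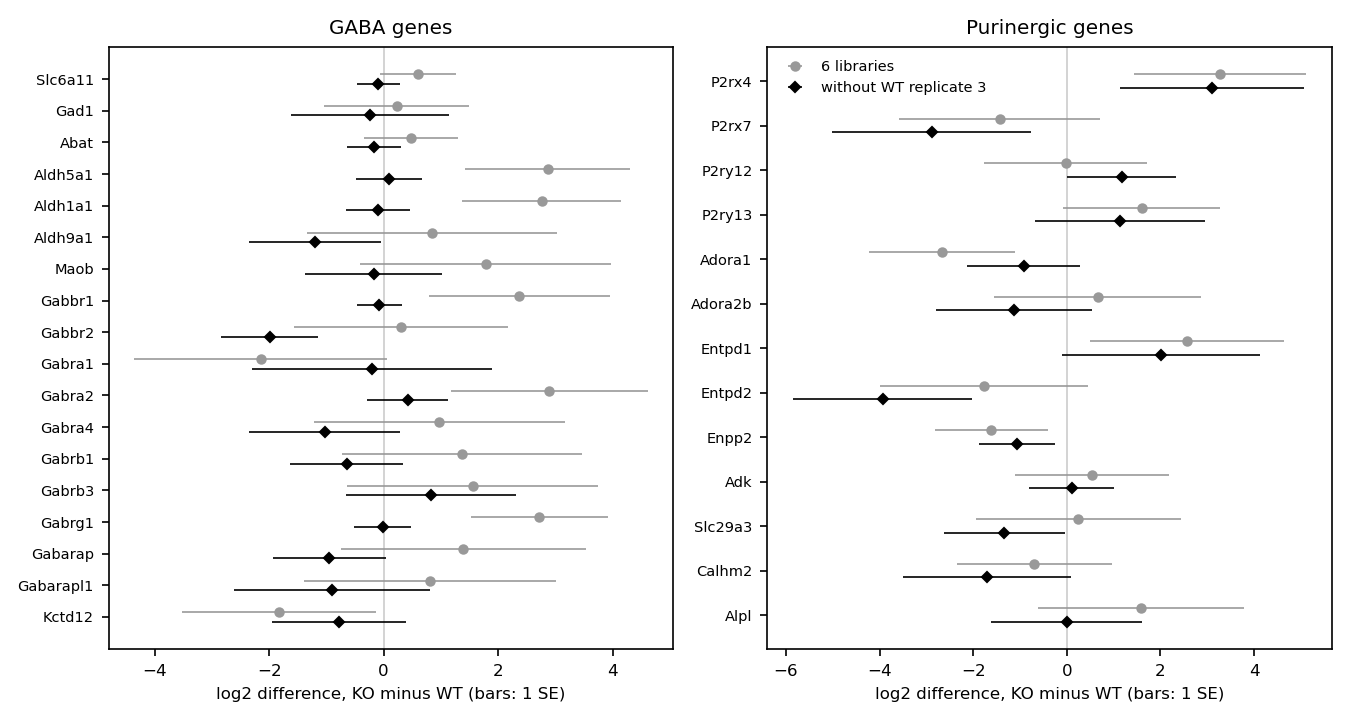
Log2 difference of KO and WT with 1 SE for tested GABA genes (left) and purinergic genes (right), with 6 libraries in grey and without WT 3 in black. Most GABA genes lie above 0 in grey and below 0 in black, Gabbr2 moves from 0.30 to -1.99, and Entpd2 lies at -3.94 without WT 3.

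Purinergic genes were mostly low and poorly measured. Of 26 listed genes 13 were tested and 0 were called. They divided 7 above and 6 below 0 with 6 libraries (median 0.24), and 6 above and 7 below without WT 3 (median -0.92). Entpd2, an ectonucleotidase that hydrolyses extracellular ATP, held 1543, 518 and 0 normalized reads in WT and 58.6, 291 and 0 in KO. The KO libraries were all below WT 1 and WT 2, at -3.94 (SE 1.92, limma unadjusted p = 0.0403) without WT 3 and -1.77 with 6 libraries. Adora1, the inhibitory adenosine receptor, held 492, 1216 and 29508 in WT and 917, 214 and 330 in KO, so that its difference of -2.67 with 6 libraries rested on WT 3 and became -0.92 (SE 1.2) without it. Adk, the adenosine kinase that clears adenosine in astrocytes, overlapped, with 744, 1398 and 405 in WT and 1553, 529 and 1592 in KO. P2ry12, a microglial ADP receptor, held 1285, 86.9 and 4244 in WT and 91.3, 1874 and 2649 in KO. P2rx4, an ATP-gated channel also found on microglia, held 10.2, 0 and 0 in WT and 0, 289 and 599 in KO. Entpd1, likewise a gene of microglia, held 3938 in KO 2 and at most 43.5 in the other 5 libraries. These 3 genes were high in KO 2, KO 3 or both, the libraries that also held 2026 and 1165 CPM of microglia markers. WT 3 held more of those markers, 4697 CPM. It was the highest library for P2ry12, but held 0 of P2rx4 and at most 43.5 of Entpd1. WT 1, with 288 CPM of the markers, held 1285 of P2ry12. The part of microglia reads in the list was not tested.

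The endfoot channel genes Aqp4 and Kcnj10 were very low in WT 3, which held 575 normalized reads of Aqp4 and 7.56 of Kcnj10. Aqp4, the water channel, held 25194, 25976 and 575 normalized reads in WT and 23840, 25038 and 43892 in KO (0.22 without WT 3, 95% interval -0.34 to 0.77, and 2.03 with 6 libraries). Kcnj10, the main inward rectifier of astrocytes, held 12098, 16800 and 7.56 in WT and 38704, 15067 and 13819 in KO, a difference of 0.49 (-0.15 to 1.14, and 3.71 with 6 libraries) with KO 1 far above the others. Kcnj16, which forms channels with the Kcnj10 product, held 8528, 6409 and 609 in WT and 4866, 1254 and 5807 in KO. All KO libraries were below WT 1 and WT 2, at -1.17 (SE 0.52, limma unadjusted p = 0.0238, and 0.03 with 6 libraries). Of the connexins, Gja1 overlapped at -0.11 (-0.80 to 0.58, and -0.18 with 6 libraries). Gjb6, the second astrocyte connexin, held 2540, 3025 and 98.3 in WT and 3797, 6572 and 8140 in KO, with every KO library above every WT library and a difference of 1.08 (0.05 to 2.11) without WT 3 and 2.64 with 6 libraries. Of the 21 tested genes of ion and water transport, 15 stood above 0 with 6 libraries (median 0.46) and 8 without WT 3 (median -0.11).

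Regulators of synapses and matrix genes stood mostly below 0 without WT 3, as 59.6% of all genes did. Of 27 tested synapse-regulating genes 7 stood above 0 and 20 below (median -0.34), and with 6 libraries 15 and 12 did (median 0.25). Gpc6, a glypican that promotes excitatory synapses, held 4648, 5220 and 0 normalized reads in WT and 1243, 1002 and 1954 in KO. Its KO libraries were all below WT 1 and WT 2, and the difference was -1.86 (SE 0.67, limma unadjusted p = 0.00549) without WT 3 and 1.12 (SE 1.65) with it. Gpc5, a related glypican of astrocytes, held 4826, 4237 and 34754 in WT and 4229, 4470 and 5930 in KO, with overlapping ranges (0.09 without WT 3, SE 0.51, and -0.89 with 6 libraries). Chrdl1, a secreted factor that matures AMPA receptor synapses, held 6543, 3965 and 6687 in WT and 4389, 8373 and 7959 in KO. Of 9 tested genes of the hyaluronan matrix, 1 stood above 0 and 8 below without WT 3 (median -0.31). With 6 libraries 5 stood above and 4 below (median 0.44). Ncan, the proteoglycan neurocan, differed by -0.28 (-0.77 to 0.20, and 0.92 with 6 libraries), and Ptprz1, the receptor phosphatase that carries chondroitin sulphate, by -0.11 (-0.58 to 0.35, and 0.47 with 6 libraries).

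Among genes of calcium and cyclic AMP signalling, Itpr2 and Adcy2 had among the smallest p-values. Itpr2 encodes the main IP3 receptor of astrocytes, which releases calcium from the endoplasmic reticulum, and spans chr6:146108299-146502223 on the minus strand. It held 5814, 4079 and 18438 normalized reads in WT and 2377, 1479 and 747 in KO, and every KO library was below every WT library. The log2 difference was -2.45 (SE 0.97, limma unadjusted p = 0.0114) with 6 libraries and -1.81 (SE 0.67, unadjusted p = 0.00675) without WT 3. In the olfactory bulb, hippocampus and thalamus the Itpr2 ranges of KO and WT overlapped. The cortex difference in Itpr2 against the mean of those regions was -1.35 (SE 1.57, limma adjusted p = 0.921), and -1.51 (SE 0.75, limma adjusted p = 1.00) without WT 3 and thalamus KO 3. Adcy2, an adenylyl cyclase, held 2776, 3786 and 3.78 in WT and 583, 580 and 113 in KO (-3.21 without WT 3, SE 1.00, limma unadjusted p = 0.00129, and -0.59 with 6 libraries). Atp2a2, the calcium pump that refills the store, overlapped, with 4170, 4198 and 5949 in WT and 5894, 1862 and 5673 in KO. Over the 14 tested genes of calcium stores and channels, 7 stood above 0 with 6 libraries and 6 without WT 3.

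Developmental signalling lists lay lower in KO without WT 3 than with it. FGF signalling had 2 of 14 tested genes above 0 (median -0.84), against 10 of 14 with 6 libraries (median 0.52). Wnt signalling had 4 of 19 above 0 (median -0.80), against 11 of 19 with 6 libraries (median 0.27). Tcf7l2, a Wnt effector, held 2058, 1777 and 0 normalized reads in WT and 451, 312 and 426 in KO, with all KO libraries below WT 1 and WT 2 (-2.26, SE 1.05, and 0.27 with 6 libraries). Smo, the transducer of Hedgehog signals, held 2534, 2192 and 0 in WT and 140, 114 and 2192 in KO, and KO 3 reached the WT level. Notch1, a Notch receptor, held 7898, 1219 and 41.6 in WT and 615, 1330 and 938 in KO, with KO 2 above WT 2. Zbtb20, a repressor active in astrocyte development, held 3137, 3235 and 0 in WT and 14714, 2907 and 7025 in KO, with KO 2 below WT 1 and WT 2. Its difference was 3.84 (SE 1.25) with 6 libraries and 1.07 (SE 0.50, limma unadjusted p = 0.0322) without WT 3. Sox9, the glial determinant, differed by -0.02 (SE 0.41, and 1.10 with 6 libraries).

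The medians of the metabolic lists were lower without WT 3. Cholesterol and fatty acid synthesis had 22 of 30 tested genes above 0 with 6 libraries (median 1.47) and 12 without WT 3 (median -0.28). Nuclear genes of the respiratory chain had 32 of 42 above 0 with 6 libraries (median 1.35) and 24 without WT 3 (median 0.07). Glycolysis, glycogen and lactate genes had 18 of 26 above 0 with 6 libraries (median 0.56) and 11 without WT 3 (median -0.10). In this list Gys1, the glycogen synthase, held 367, 1348 and 3514 normalized reads in WT and 0, 0.773 and 10.9 in KO. Every KO library was below every WT library, at -6.54 (SE 2.21, limma unadjusted p = 0.00311) with 6 libraries and -5.77 (SE 2.08) without WT 3. The locus of Gys1 (chr7:45434844-45456619, plus strand) overlaps Ruvbl2 on the other strand, and the use of strand in counting is not given in the sources used here. Pygb, a glycogen phosphorylase, held 10580, 8309 and 83.2 in WT and 6711, 6199 and 9779 in KO (-0.34, SE 0.42, and 1.88 with 6 libraries). Psat1, an enzyme of serine synthesis, held 4868, 3032 and 0 in WT and 5964, 5449 and 6104 in KO, with every KO library above every WT library but a difference of 0.60 (SE 0.50) once WT 3 was left out.

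The median of ribosomal protein genes was higher without WT 3. Of 75 tested cytosolic ribosomal protein genes, 30 stood above 0 with 6 libraries (median -0.33) and 53 without WT 3 (median 0.41). The listed genes summed to 9336, 9918 and 34222 CPM in WT 1 to 3 and to 12490, 18665 and 9958 in KO 1 to 3. KO 2 was thus the highest KO library, and KO 3 was close to WT 2. Without WT 3 the groups did not overlap for 15 genes with KO higher and 2 with KO lower, where 6.66% and 12.4% of all genes did. Rpl35, a protein of the large subunit, held 78.5, 575 and 0 normalized reads in WT and 2394, 1416 and 2134 in KO. Each KO library was above each WT library, at 3.10 (SE 1.01, limma unadjusted p = 0.00223) without WT 3 and 4.60 with 6 libraries. Rpl24, also of the large subunit, held 1721, 232 and 9644 in WT and 2497, 3278 and 2377 in KO (2.06, SE 0.79, and 0.76 with 6 libraries). Rps24, of the small subunit, held 1216, 1583 and 14315 in WT and 3136, 4211 and 5056 in KO (1.54, SE 0.63, and 0.42 with 6 libraries). In both, KO was above WT 1 and WT 2 and below WT 3. Ribosomal protein genes have processed copies in the genome, and how reads shared with such copies were counted is not given in the sources used here.

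**Figure D4:**
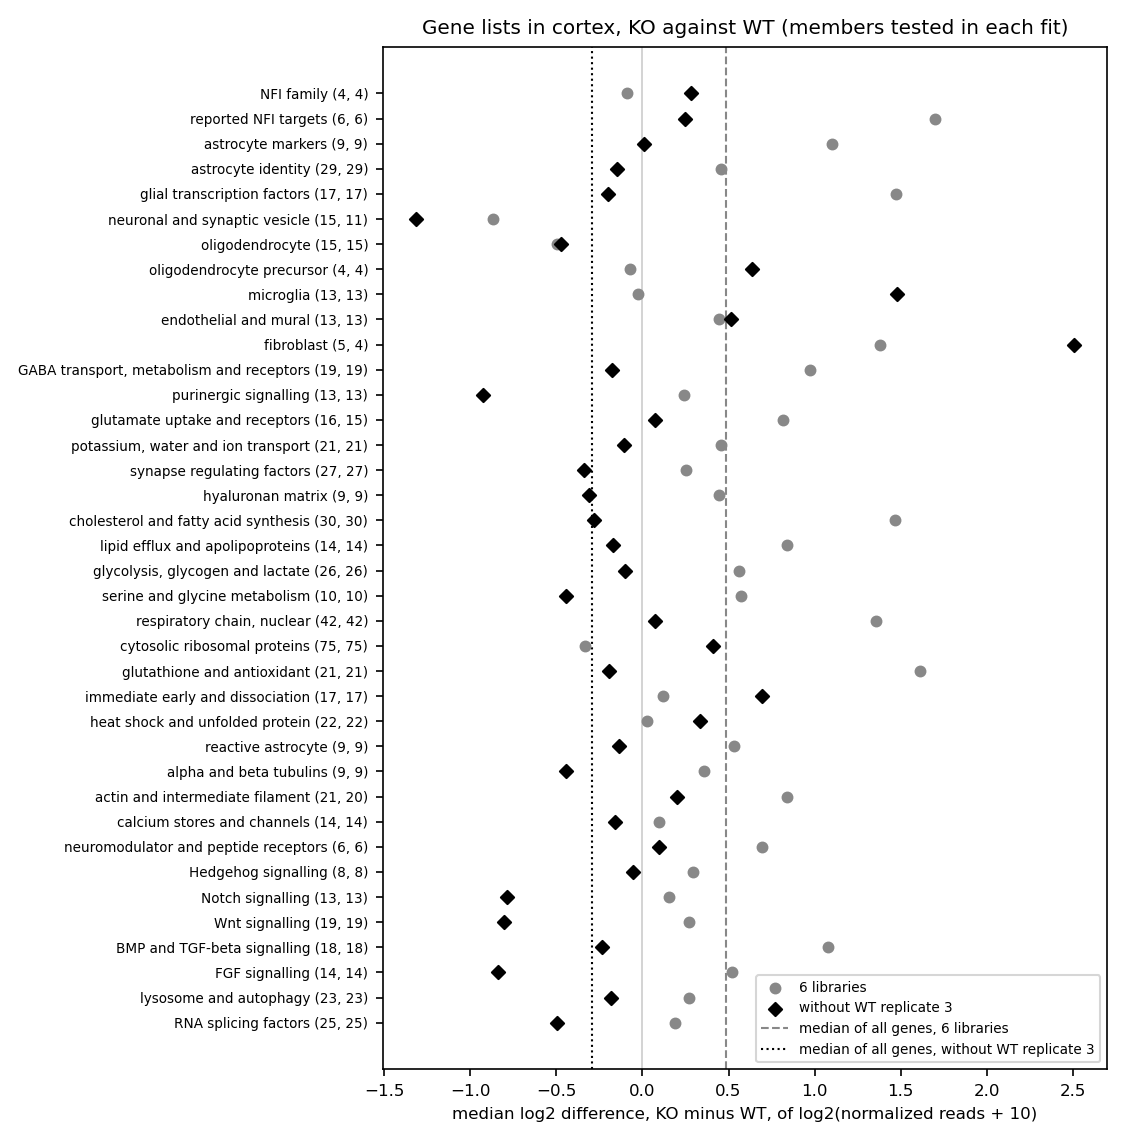
Median log2 difference of KO and WT in each gene list with at least 3 tested members, with 6 libraries (grey circles) and without WT 3 (black diamonds), beside the medians of all genes tested (0.49, dashed, and -0.29, dotted). Most lists move down when WT 3 is left out. Those that move up include fibroblast (to 2.51), microglia (1.48), immediate early (0.70), oligodendrocyte precursor (0.63), ribosomal protein (0.41), heat shock (0.33) and NFI genes (0.28). Endothelial and oligodendrocyte genes move up slightly.

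Microglia genes stood mostly above 0 without WT 3, through KO 2 and KO 3. Of 13 tested microglia genes, 6 stood above 0 with 6 libraries and 12 without WT 3 (median 1.48). That median was 0.12 when KO 2 was also left out and 0.50 when KO 3 was, and KO 1 held fewer microglia reads than either remaining WT library. Tmem119 was at 0 in WT 1 and WT 2, and its fitted value lies above that median, so a larger value for it would leave the median in place. Tyrobp, a microglial signalling adaptor, held 243, 48.6 and 1978 normalized reads in WT and 453, 1517 and 1893 in KO, with every KO library above WT 1 and WT 2 (3.18, SE 1.28, limma unadjusted p = 0.0129, and 1.84 with 6 libraries). Mbp, the myelin basic protein, held 20788, 23279 and 880569 in WT and 21633, 128477 and 51842 in KO, so that KO 1 was at the WT level. Igf2, a growth factor of meninges and choroid plexus, held 0.599, 1.82 and 1664 in WT and 176, 1357 and 500 in KO. Lum, a proteoglycan of fibroblasts, was at 0 in all WT libraries and held 450, 374 and 111 in KO. The defining fibroblast genes Col1a2, Col3a1 and Dcn were too low to test, and Col1a1 was at 0 in every KO library. Of the tested neuronal and synaptic vesicle genes, 12 of 15 stood below 0 with 6 libraries (median -0.87), beside 39.2% of all genes. Without WT 3, 8 of 11 did (median -1.32), beside 59.6% of all genes. Single synaptic genes were uneven across libraries. Snap25, of the vesicle fusion complex, held 1379, 2223 and 964 in WT and 172, 63.4 and 2095 in KO. Immediate early genes, which respond to activity and to tissue dissociation, had 12 of 17 tested members above 0 without WT 3 (median 0.70). With 6 libraries 9 of 17 stood above 0 (median 0.12). Egr1 held 195, 663 and 9845 in WT and 81.1, 9746 and 948 in KO, with KO 2 and WT 3 far above the others. The part of other cells in the differences of astrocyte genes was not tested.

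The genes with the smallest p-values among those whose groups did not overlap included some whose difference was far smaller without WT 3 and others that kept it. With 6 libraries the 8 such genes with KO higher were Acsbg1, Cfl1, Dpysl2, Psat1, Dazap2, Nudt12, Papss2 and Gpr19. Acsbg1, an acyl-CoA synthetase of glia, held 5715, 5633 and 15.1 normalized reads in WT and 12964, 10518 and 5859 in KO. Its difference was 3.32 (SE 1.08, limma unadjusted p = 0.00255, adjusted p = 0.996) with 6 libraries and 0.71 (SE 0.43) without WT 3. Cfl1, the actin-severing protein cofilin, held 4861, 7286 and 480 in WT and 16821, 9527 and 10473 in KO, and kept a difference of 1.00 (SE 0.41) without WT 3. Dpysl2, a regulator of microtubules, held 6058, 4288 and 0 in WT and 6835, 6788 and 7232 in KO (0.45, SE 0.46, without WT 3, and 3.45 with 6 libraries). Papss2, which makes the sulphate donor of proteoglycans, held 3423, 2968 and 0 in WT and 4260, 5333 and 4819 in KO (0.58, SE 0.54, and 3.36 with 6 libraries). Nudt12, a NADH diphosphatase, was low in all WT libraries, with 37.8, 2.43 and 0, and held 410, 694 and 2382 in KO. Gpr19, an orphan receptor, was at 0 in all WT libraries and held 165, 22.4 and 13261 in KO, so that KO 3 held nearly all of its reads.

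Genes with KO lower by the same rule included Syp, Gys1, Nucb1, Utp11l, Fkbp8, Ccbl1 and Itpr2. Syp, the synaptic vesicle protein synaptophysin, held 605, 194 and 24682 normalized reads in WT and 0, 3.09 and 0 in KO. Its difference of -7.06 (SE 2.21, limma unadjusted p = 0.00141) was the smallest p of the fit. Syp, Gys1, Nucb1, Utp11l, Fkbp8 and Ccbl1 reached the filter of 10 normalized reads in 3 libraries mainly or wholly through WT, the higher group. Syp and Ccbl1 had too few values to be tested without WT 3. The same limit holds for genes with KO higher. Gpr19 and Lum reached the filter only through KO, as did Pabpn1 and Igf2 in the fit without WT 3. Nucb1, a calcium-binding protein of the Golgi, held 825, 899 and 7352 in WT and 2.73, 70.3 and 0 in KO (-5.33, SE 2.12, without WT 3, and -6.35 with 6 libraries). Fkbp8, an anchor of mitochondrial proteins, held 369, 574 and 38785 in WT and 5.45, 160 and 5.02 in KO. Ccbl1, a kynurenine aminotransferase, was even within WT, with 228, 741 and 616, and held 0, 0.773 and 0 in KO. In Syp and Fkbp8 the WT mean rested on WT 3. WT 1 and WT 2 were still far above every KO library in Syp, Ccbl1 and Nucb1. In Fkbp8 they were also above every KO library, by less. Nucb1 and Fkbp8 overlap Tulp2 and Kxd1 on the other strand.

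Without WT 3 the 8 genes with the smallest p and KO higher were Map2k7, Tmed9, Akap6, Rpl35, Dbndd2, Cyfip2, Pabpn1 and Nudt12. Map2k7, a kinase that activates JNK, held 91.1, 185 and 0 normalized reads in WT and 3330, 973 and 3001 in KO (3.94, SE 1.07, limma unadjusted p = 0.000224, adjusted p = 0.916, and 5.21 with 6 libraries). Tmed9, a cargo receptor of the early secretory pathway, held 223, 35.2 and 0 in WT and 342, 2338 and 4372 in KO. Map2k7 and Tmed9 were above all WT libraries in every KO library. Akap6, an anchor of protein kinase A, held 290, 1224 and 16335 in WT and 3164, 5896 and 1926 in KO. Cyfip2, of the complex that drives actin branching, held 284, 103 and 522 in WT and 1743, 3189 and 866 in KO, also without overlap. Pabpn1, the nuclear poly(A)-binding protein, held 1.80, 9.11 and 24421 in WT and 354, 2012 and 713 in KO, so that WT 3 alone was above KO. Pkp4, a plakophilin of cell junctions, had the smallest p of all (limma adjusted p = 0.182) and is named after its values were seen. It held 31.8, 1812 and 32568 in WT and 1684, 11501 and 2158 in KO, and KO 1 was below WT 2.

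The 8 genes with KO lower were Clu, Adcy2, Nnat, Ndst1, Noa1, Ece1, Tpr and Gpc6. Nnat, the imprinted proteolipid neuronatin, held 2675, 2076 and 0 normalized reads in WT and 444, 546 and 4.19 in KO, a difference of -3.95 (SE 1.28, limma unadjusted p = 0.00198) without WT 3 and -1.32 with 6 libraries. In the hippocampus Nnat held 7631 to 15261 in WT and 299 to 3010 in KO, also without overlap, while in the olfactory bulb and thalamus the ranges overlapped. Ndst1, an enzyme that sulphates heparan chains, held 4624, 1403 and 1388 in WT and 68.1, 672 and 173 in KO, with every KO library below every WT library. Ndst1 overlaps Rps14 on the other strand, and Nnat lies within Blcap, also on the other strand. Ece1, the endothelin-converting enzyme, held 5609, 4214 and 1411 in WT and 613, 1251 and 2170 in KO (-2.03, SE 0.69, and -1.43 with 6 libraries). Tpr, of the nuclear pore basket, held 8007, 3748 and 4240 in WT and 1252, 3490 and 903 in KO (-1.79, SE 0.64, and -1.66 with 6 libraries). Noa1, a mitochondrial GTPase, held 794, 4877 and 0 in WT and 15.0, 43.3 and 75.4 in KO.

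**Figure D5:**
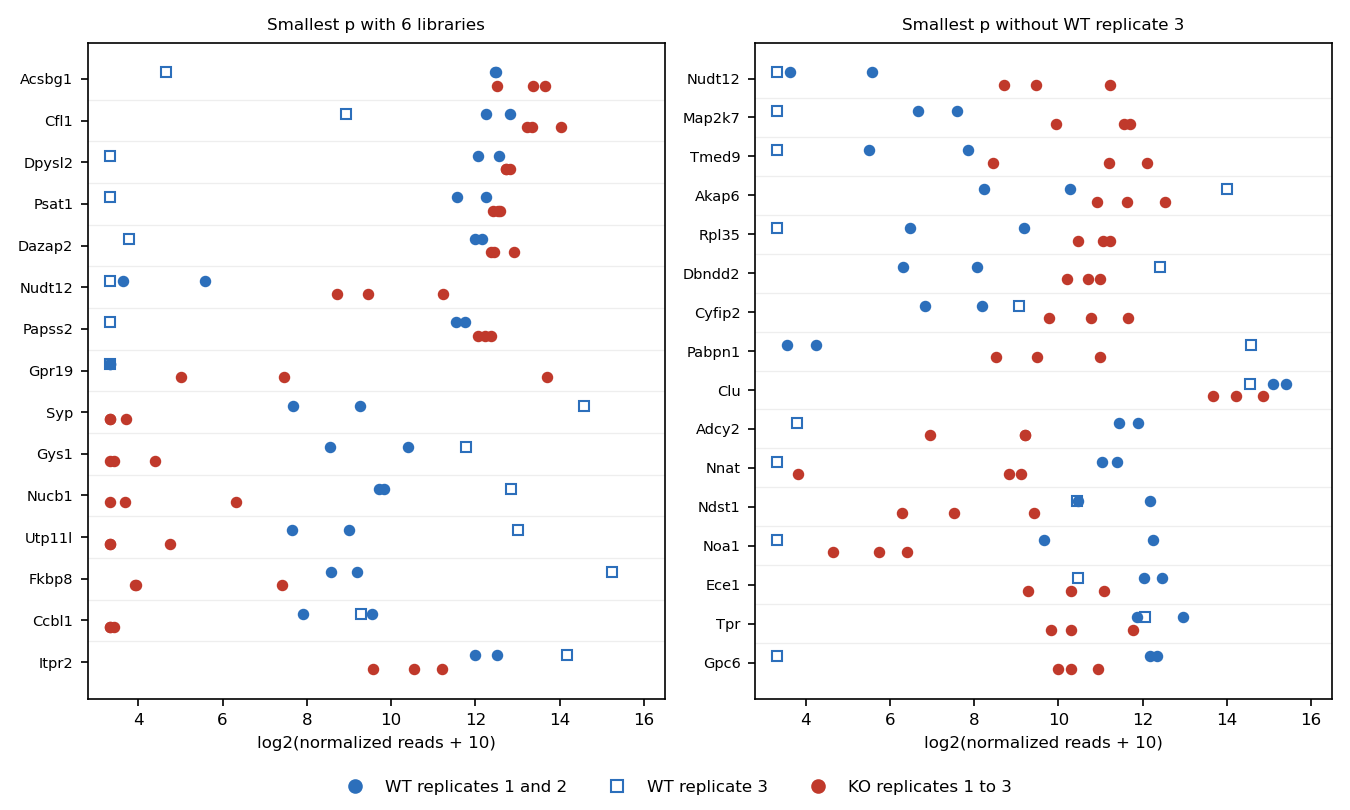
Log2(normalized reads + 10) in each cortex library for genes with the smallest p whose groups do not overlap, with 6 libraries (left) and without WT 3 (right), WT 1 and 2 as filled blue points, WT 3 as open blue squares and KO as red points. On the left WT 3 is the lowest library for Acsbg1 to Papss2 and the highest for Syp to Fkbp8, and on the right it lies on either side of the KO points.

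Promoters of these leading genes were searched for the NFI motif, the sequence that NFI factors are known to bind. The palindrome of TTGGC, any 5 bases and GCCAA, on either strand, was in 12 of 32851 RefSeq promoter windows (250 bases before to 50 after a gene's start, GRCm38.p6) and in none of the windows of the 24 named NFI and leading genes that had one. The single site TTGGCA or its complement TGCCAA, which may overlap a palindrome, was in 14.1% of all windows, in 13.4% of the 6448 tested genes with a window and in 3 of the 24 (12.5%). The 3 windows are shown because they are the ones among these genes that hold the site, which is in capitals. They lie at chr4:137861987-137862286 for Ece1, chr14:54893893-54894192 for Pabpn1 and chrX:7638330-7638629 for Syp, all on the plus strand. Ece1 held fewer reads in KO than in WT 1 and WT 2, Pabpn1 held more, and Syp held fewer.
Ece1: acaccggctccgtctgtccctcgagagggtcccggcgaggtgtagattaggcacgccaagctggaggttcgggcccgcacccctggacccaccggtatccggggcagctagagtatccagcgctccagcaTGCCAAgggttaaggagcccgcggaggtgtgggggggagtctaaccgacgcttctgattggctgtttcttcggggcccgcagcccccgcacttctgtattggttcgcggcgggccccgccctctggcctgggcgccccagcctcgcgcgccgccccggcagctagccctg
Pabpn1: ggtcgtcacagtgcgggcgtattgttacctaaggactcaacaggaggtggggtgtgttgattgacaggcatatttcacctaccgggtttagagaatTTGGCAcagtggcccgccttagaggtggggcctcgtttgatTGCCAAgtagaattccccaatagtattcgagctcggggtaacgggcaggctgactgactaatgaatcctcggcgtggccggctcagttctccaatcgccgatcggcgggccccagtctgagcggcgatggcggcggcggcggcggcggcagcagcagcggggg
Syp: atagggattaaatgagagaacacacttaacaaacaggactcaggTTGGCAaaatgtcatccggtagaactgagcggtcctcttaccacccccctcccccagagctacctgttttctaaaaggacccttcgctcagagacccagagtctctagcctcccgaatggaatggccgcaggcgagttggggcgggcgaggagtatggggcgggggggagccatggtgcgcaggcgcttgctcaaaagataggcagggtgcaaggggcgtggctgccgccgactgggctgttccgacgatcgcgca
A match is a description of the letters, and binding was not measured.

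The tools run on recovered reads called few genes. With 6 libraries edgeR's quasi-likelihood test called 1 gene higher (Gpr19) and 5 lower, among them Fkbp8, Mms19, Syp and Thsd7a, each with most of its reads in WT 3. Without WT 3 edgeR called 0 genes, with 163 at an unadjusted p under 0.05. DESeq2 called 11 higher and 15 lower with 6 libraries and 34 higher and 3 lower without WT 3, and 12 genes were in both sets, 11 of them higher in KO. Napg, a factor that recycles vesicle fusion proteins, was among the 12, with 24.6, 12.8 and 0 normalized reads in WT and 1212, 845 and 513 in KO. Col4a2, a basement membrane collagen, was at 0, 0 and 3.78 in WT and held 54.5, 360 and 366 in KO. Col4a5, of the same family, was at 0 in all WT libraries and held 482, 47.9 and 152 in KO. Lum, above, and Gys1, the 1 gene of the 12 that was lower, were the others described here. Napg, Col4a2 and Col4a5 are named after their values were seen. Of the 11 higher genes in both sets, all but Napg, and so also Col4a2, Col4a5 and Lum, reached the filter on low values only through KO. Without WT 3, genes near 0 in all KO libraries could not reach that filter, which needs 3 libraries. Both DESeq2 runs also share every library except WT 3. The overlap of the sets and its direction are therefore not independent evidence of higher levels in KO.

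No gene passed the test of a cortex difference against the other regions. The KO difference of the cortex minus the mean KO difference of the olfactory bulb, hippocampus and thalamus was fitted over all 24 libraries for 12477 genes. Limma called 0 (0%), with 650 (5.21%) at an unadjusted p under 0.05 and a smallest adjusted p of 0.799. With WT 3 and thalamus KO 3 left out it called 0 of 12424, with 526 (4.23%) at an unadjusted p under 0.05. A p above the threshold does not show that the regions respond alike.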

How the data were processed

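Bulk RNA-seq libraries were made from 10 ng of RNA of sorted cells, per the labels' protocols, with no stated molecular identifiers. Per the submitters' processing notes, the tools were STAR 2.5.0a, DESeq2 1.20.0 with R 3.5.2, and FastQC 0.10.1 with MultiQC 0.9, on build mm10. The sources used here do not name the counting tool, the annotation or whether strand was used. The deposited table holds a signal per gene and library, reads divided by a size factor by the authors, as the values show: 100% were whole multiples of 1 read within 0.001. Of 24421 entries, 27 named as dates were left out.

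Groups came from the tissue and genotype labels, replicate numbers from the titles. Genes with at least 10 in 3 or more libraries were fitted with limma 3.58.1 (lmFit, eBayes with trend and robust) in R 4.3.3 on log2(value + 10), with and without WT replicate 3. edgeR 4.0.16, DESeq2 1.42.0 and limma-voom were run on recovered reads. The region contrast used all 24 libraries. The limma fits were tested on simulated data with changed genes before use. With a small spread (dispersion 0.05) they called 100% of genes changed 8-fold. With a spread set from these data they called 0% of genes changed 8-fold with 6 libraries and 22.8% without WT 3. Of genes changed 2-fold they called 0% in both. Named genes were the NFI genes, any called gene, the 8 smallest p per direction in each fit among genes without overlap and with a mean of 50 or more, and per list the 3 most abundant tested members and those with an unadjusted p under 0.01. A few genes that the rule admits are not reported here. Genes outside this rule that are printed as list members were chosen after their values were seen. The members, the 40 gene lists and the alternatives were chosen with earlier results of these data known. Coordinates are from GENCODE and promoters from RefSeq, both GRCm38. Utp11l and Ccbl1 had no entry under these names. Intervals and p-values cover the spread between libraries. At depths of 4803663 to 16924793 reads, 3 reads of a gene correspond to 1.80 to 11.3 normalized reads, a level not used as a cutoff.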

Additional observations from a re-analysis of the deposited data

Results flagged for a closer look

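Some of the leading cortical genes, none of them called, had a difference of the opposite sign in another region, with no overlap between KO and WT in either region. The difference between such pairs of regions was not tested. Dpysl2, higher in KO in the cortex (3.45 with 6 libraries, 0.45 without WT 3), had a log2 difference of -0.51 in the hippocampus, where KO held 4134 to 5766 normalized reads and WT 6426 to 7693. In the thalamus it was -2.88, where KO 3, a library with few detected genes, held 19.8. Dazap2, higher in the cortex (3.27 with 6 libraries, 0.51 without WT 3), stood at -1.19 in the olfactory bulb, with 1168 to 1944 in KO and 3017 to 4403 in WT. Nucb1, lower in the cortex, stood at 2.68 in the olfactory bulb, where every KO library, at 362 to 1386, was above every WT library. Rpl35, higher in the cortex, stood at -0.93 in the olfactory bulb, with 687 to 715 in KO and 1023 to 2057 in WT. Ece1, lower in the cortex without WT 3, stood at 3.17 in the hippocampus, with 1336 to 6897 in KO and 35.1 to 801 in WT. In the thalamus Ece1 had the sign of the cortex, at -3.54, with every KO library below every WT library. Besides Clu and Nnat, described above, other leading genes also kept their cortex sign without overlap elsewhere. These included Map2k7 (4.77) and Ndst1 (-5.05) in the thalamus and Tpr (-0.80) in the hippocampus. Against the mean of the other 3 regions, the limma contrast for Nucb1 was -6.47 (SE 1.91, adjusted p = 0.862), and for Rpl35 it was 4.44 (SE 1.71, adjusted p = 0.862). Without cortex WT 3 and thalamus KO 3 these became -5.67 and 3.2. The contrast for Dpysl2 went from 4.59 to 0.88, that for Dazap2 from 3.39 to 0.34 and that for Ece1 from -1.19 to -2.60.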

How the results depend on the processing

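With 6 libraries limma called 0 genes under each alternative pseudocount, filter, scaling and weighting, with all 24 libraries in the fit, and when each library was left out in turn (0 to 0). Counts of genes moved with the tool: edgeR called 1 higher and 5 lower, DESeq2 11 and 15 (1125 adjusted p not given), limma-voom 0 and 2. Without WT 3, edgeR and limma-voom called 0 and DESeq2 34 higher and 3 lower. Leaving out a further library there gave 1 higher gene without WT 2 (Pkp4, where WT 1 alone stands for WT and is assumed to vary like KO), 4 without KO 1 (Csf1r, Ednra, Mbp and Pkp4) and 1 without KO 2 (Rab7). Scaling moved the median of all genes from 0.49 to 0.63 with TMM factors and -0.13 with upper-quartile factors, and array weights moved it to -0.20. The share of genes above 0 was 60.8% with the deposited factors and 47.7% with upper-quartile factors. Nfix reversed under upper-quartile factors, to -1.52 (SE 2.43), and stood at 0.74 (SE 0.81) with TMM factors. The 32 results of the leading genes, which leave out the NFI genes, had 480 alternative values. Of those values 466 kept direction and side of the threshold, 14 passed it and 0 reversed. These genes had been chosen for groups without overlap, which favours a kept direction. For the fit without WT 3 no alternative restored that library. Restoring it took Gpc6 from -1.86 to 1.12, while the other leading genes of that fit kept their direction. Of 1209 alternative list medians 121 moved by more than the spread. Correlations of deviations between libraries of the same replicate number were 0.0704, -0.0713 and 0.0002, beside -0.0831 to 0.0848 between unlike numbers. The deviations were taken from group means that include WT 3, so they cannot decide whether the libraries are paired. With the replicate block limma called 0 genes, with 219 at an unadjusted p under 0.05. Without WT 3 the block also gave 0 called genes, with 419 at that p against 279 with no block. Depth limits genes of low level: the median SE with 6 libraries was 2.12 over all genes and 0.59 at means of 10000 or more.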
